A study of Macaca mulatta with 49 samples.

Results

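Type I interferon stimulated genes were followed in central memory T cells (TCM) of rhesus macaques before and after an antibody against interleukin 15 (IL-15). Of 47 genes listed as interferon stimulated, 28 had a probe with a detection p-value below 0.05 in at least 6 of the 24 CD8 samples or 6 of the 24 CD4 samples, out of 9355 genes past that filter in all. The genes were listed by name, with earlier results of these data known. Where a gene had more than 1 probe its brightest was kept. All 28 passed in CD8 TCM and 27 passed in CD4 TCM. The exception was HERC6, detected in 8 of 24 CD8 samples and in 4 of 24 CD4 samples, which was tested in CD8 TCM only and in the fits of both cell types.

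The 8 groups of 6 samples were CD8 TCM after and before anti-IL-15, CD8 TCM after and before an IgG1 control antibody, and the same 4 groups of CD4 TCM. The cells were sorted from blood of 12 animals, 6 per antibody, and each animal gave all of its 4 samples, so the cell types share their animals. The labels give neither the dose nor the time since treatment, nor the age of the animals, and a misspelt time point on control samples was read as post-treatment. RNA was hybridised to human Illumina BeadChips, and a dark probe may reflect a macaque sequence it does not match as well as a silent gene.

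Type I interferons bind the receptor chains IFNAR1 and IFNAR2, which signal through the kinases JAK1 and TYK2 and so turn on interferon stimulated genes. The products of these genes sense viral RNA, degrade it, block virus entry or tag proteins with the ubiquitin-like modifier ISG15, and feedback inhibitors such as SOCS1 and USP18 shut the signal off. T cells carry the receptor, and many of these genes keep a basal level in resting cells. IL-15 is a cytokine on which natural killer (NK) cells and memory CD8 T cells depend, and it signals through JAK1, JAK3 and STAT5.

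The listed genes were read unequally by role. Past the filter were 6 of 10 sensors and double-stranded RNA enzymes (ADAR, EIF2AK2, IFIH1, OAS1, OAS2, OASL), 4 of 6 membrane and entry factors (BST2, IFITM1, IFITM2, LY6E) and 4 of 5 genes of ISG15 conjugation (ISG15, HERC5, HERC6, UBE2L6). The others were 3 of 4 ADP-ribosylation genes (PARP9, PARP12, PARP14), 3 of 5 transcription and nuclear body genes (IFI35, SP100, SP110), 1 of 4 IFIT genes (IFIT1), 1 of 4 genes of the dynamin-like GTPases and the viperin locus (MX1), and 6 of 9 further genes (EPSTI1, IFI44, IFI44L, ISG20, TRIM22, XAF1). Detection was complete for 18 members, in every sample of both cell types.

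The 19 listed genes below the filter included several textbook interferon targets. They were IFI16, OAS3, RIGI, DDX60, IFITM3, PLSCR1, IFIT2, IFIT3, IFIT5, MX2, RSAD2, CMPK2, USP18, IRF7, IRF9, DTX3L, LGALS3BP, SAMD9 and SAMD9L. None was detected in more than 5 CD8 samples or 4 CD4 samples, and 8 were detected in no sample. Of these genes 16 had a single probe. Just outside the filter lay IFIT5 with 5 CD8 and 4 CD4 samples and RIGI with 4 and 3, and just inside it lay HERC6 with 8 and 4. Because most absent genes rest on 1 human probe, macaque levels below detection cannot be told apart from a sequence mismatch.

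Most lineage genes that the array could read followed the sort labels. In limma before treatment, 4 of 4 CD8 lineage genes tested were higher in CD8 TCM (adjusted p below 0.05), where 15.3% of all genes were. Of 3 CD4 lineage genes tested 2 were lower at that threshold, where 20.8% of all genes were, and 1 had a difference of 0.19. CD8B and CTLA4 passed the detection filter through 1 cell type alone, so their directions lean that way by selection. CD8A was detected in 24 of 24 CD8 samples and in 19 of 24 CD4 samples, and CD8B in 20 and 0. EOMES and RUNX3 were detected in 24 samples of each cell type. The CD4 probe gave signal in 0 CD8 samples and 1 CD4 sample. CTLA4 was detected in 3 and 23, MAF in 24 and 24, and ZBTB7B in 20 and 16. CD3D, CD3G, CD2, CD5, CCR7, IL7R and LEF1, genes of T cells and of central memory, were detected in all 24 samples of each cell type. Of the same list, CD28 was detected in 13 CD8 and 22 CD4 samples, CD3E in 3 and 4, and CD27 in 1 and 0. The arrays' median intensities lay between 88 and 103 (CD8) and between 96 and 108 (CD4). The labels put the sorted cells per sample between 23000 and 116000 (CD8) and between 197000 and 958000 (CD4). The array of CD8 anti-IL-15 animal 4 after treatment had a median correlation of 0.952 with the other CD8 samples. Anti-IL-15 animal 3 had 0.962 after and 0.954 before treatment in CD4 TCM, so some of the results that lean on animal 3 or 4 are given without that animal too. CD8 IgG1 animal 2 before treatment is the mean of 2 arrays.

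In CD8 TCM after anti-IL-15, no interferon stimulated gene passed the test, although most had a positive change. In limma, 0 of 28 members passed an adjusted p of 0.05, where 0.174% of all 8626 genes did. At an unadjusted p below 0.05, 8 members were higher and 1 lower, where 4.46% of all genes were higher and 5% lower. The change was above 0 for 22 of 28 members, where it was above 0 for 45.8% of all genes. The median change was 0.16 on the log2 intensity scale, against -0.02 over all genes. In bulk samples such as these, fewer cells of a type and less RNA per cell cannot be told apart.

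The genes of ISG15 conjugation had the largest role median in CD8 TCM after anti-IL-15, 0.40 over 4 genes. ISG15, the ubiquitin-like modifier, was at a low of 9.16, a median of 10.00 and a high of 10.99 after anti-IL-15, against 8.52, 9.05 and 10.99 before. Animal 4 gained most, at 10.72 after against 8.86 before, while animals 1 and 2 were at 9.95 and 10.99 after against 10.06 and 10.99 before, so the groups overlapped widely. The fitted change was 0.70 ± 0.23 (moderated standard error (SE) of limma, 12 animals in the fit), or 1.63-fold, and was positive in 4 of 6 animals (adjusted p = 0.321). Without animal 4 it was 0.47 (adjusted p = 0.575).

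HERC5, in human cells the main ligase that attaches ISG15, ran from 5.34 over a median of 6.19 to 6.93 after anti-IL-15, against 5.07, 5.48 and 6.74 before. Animals 3 and 4 accounted for the largest differences, at 6.37 and 6.08 after against 5.27 and 5.07 before. Its change was 0.47 ± 0.17, positive in 5 of 6 animals (adjusted p = 0.389). It was 0.34 without animal 3 (adjusted p = 0.574), 0.36 without animal 4 (adjusted p = 0.603) and 0.20 without background correction. UBE2L6, the conjugating enzyme of the same pathway, had a change of 0.33 ± 0.14 (adjusted p = 0.464). HERC6, the ligase of this pathway in mice, had a change of -0.07.

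ISG20, an exonuclease that degrades RNA, completed the 3 lowest p values in this comparison. It ran from 12.05 over a median of 12.42 to 12.75 after anti-IL-15, against 11.80, 11.90 and 12.42 before. Only animal 1 was not higher after treatment. The change was 0.36 ± 0.13 (1.28-fold, adjusted p = 0.417). The remaining members with an unadjusted p below 0.05 were EIF2AK2, the kinase PKR that halts translation on double-stranded RNA (0.53), EPSTI1 (0.42), the entry factor IFITM2 (0.41), IFI44 (0.36) and, in the other direction, IFI44L (-0.35). IFI44 and IFI44L are neighbours with no gene between them in the macaque RefSeq table (T2T-MMU8v2.0), and they differed in sign. Among the others, all 4 membrane and entry factors and 5 of 6 sensors and RNA enzymes had positive changes, while PARP12 and PARP14 had changes of -0.21 and -0.20. IFITM1 and IFITM2, close paralogs, may share signal on these human probes.

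**Figure D1:**
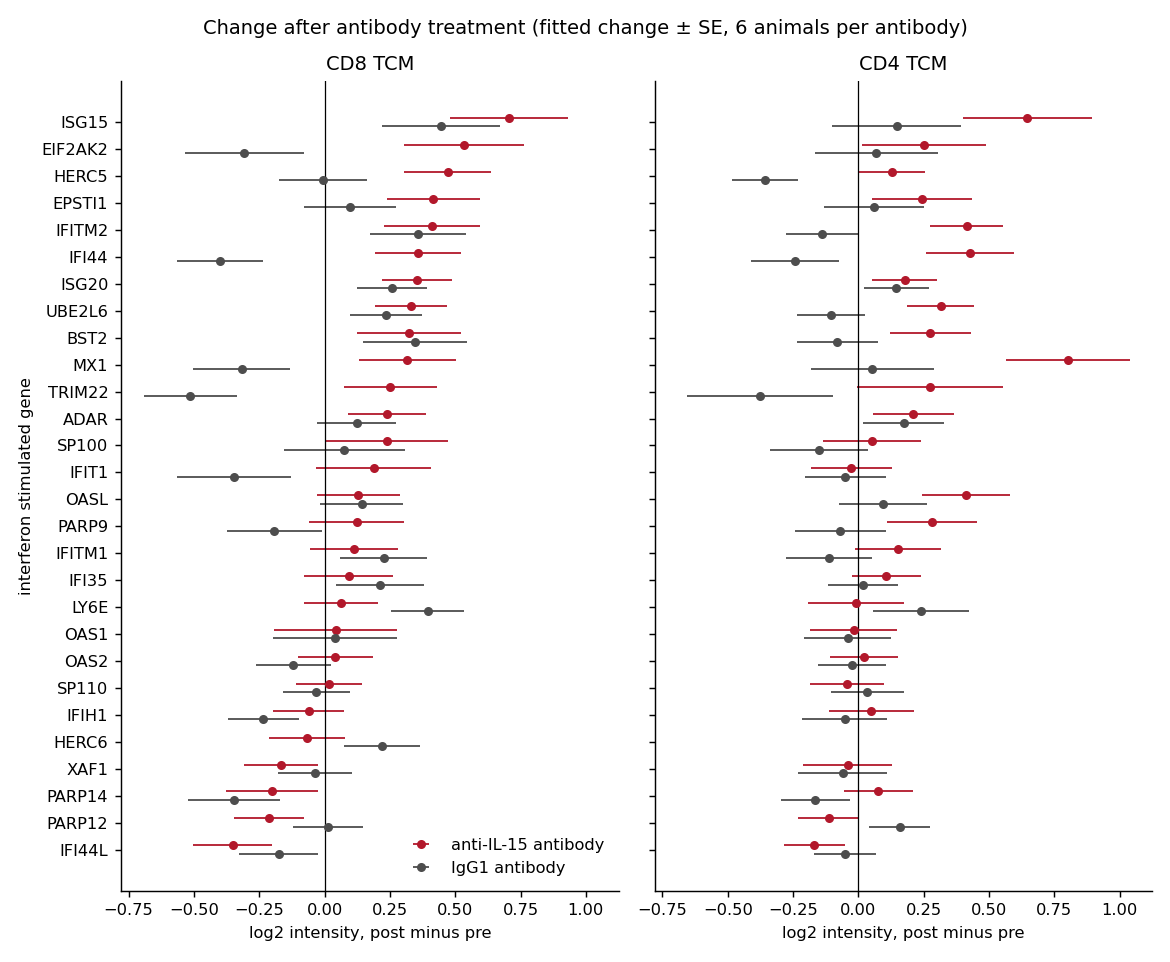
Fitted change of every member on the log2 intensity scale, after minus before treatment, in CD8 TCM (left) and CD4 TCM (right), for anti-IL-15 (red) and IgG1 (grey); points are limma estimates, bars are ± SE, and each antibody has 6 animals. In CD8 TCM 22 of 28 members lie above 0 after anti-IL-15 and 15 of 28 after IgG1, and in CD4 TCM 20 of 27 and 11 of 27.

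After the IgG1 antibody, CD8 members lay on both sides of 0. In limma 0 of 28 members passed, where 0% of genes did, and 1 was higher and 2 lower at an unadjusted p below 0.05, where 2.76% of genes were higher and 4.27% lower. The median change was 0.03, against -0.03 over all genes, and 15 of 28 members were above 0, where 44.1% of all genes were. TRIM22, an antiviral ubiquitin ligase, ran from 6.74 over a median of 7.06 to 7.53 after IgG1, against 7.34, 7.54 and 7.91 before. Every one of the 6 animals was lower after IgG1, animal 2 by the least, although the groups overlapped. Its change was -0.51 ± 0.18 (adjusted p = 0.686).

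LY6E, a membrane protein that blocks entry of some viruses, was higher after IgG1 in 6 of 6 animals without passing. It ran from 8.20 over 8.91 to 9.12 after IgG1, against 7.73, 8.57 and 8.79 before, a change of 0.39 ± 0.14 (adjusted p = 0.686). IFI44, a cytoplasmic protein of interferon-treated cells, ran from 5.38 over 7.06 to 8.02 after IgG1, against 6.25, 7.31 and 8.58 before. It was lower after IgG1 in 6 of 6 animals, with a change of -0.40 ± 0.16 (adjusted p = 0.686), although the spread between animals exceeded that change. Membrane and entry factors as a role had a median change of 0.35 after IgG1 and 0.22 after anti-IL-15 in CD8 TCM.

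The difference between the antibodies asks whether a change after anti-IL-15 exceeded that of animals given IgG1. The labels do not say whether the antibody groups were otherwise handled alike. In CD8 TCM 0 of 28 members passed for this difference in limma, where 0% of genes did, and 4 members were higher at an unadjusted p below 0.05, and 0 lower, where 4.37% of all genes were higher and 3.3% lower. The difference was above 0 for 19 of 28 members, where it was for 51% of all genes. The largest were EIF2AK2 at 0.84 ± 0.32 (adjusted p = 0.604), TRIM22 at 0.77 ± 0.25 and IFI44 at 0.76 ± 0.23 (adjusted p = 0.597 for both). These 3 and MX1, at 0.63, combined positive changes after anti-IL-15 with negative ones after IgG1. EIF2AK2 ran from 5.86 over 6.03 to 6.55 after anti-IL-15, against 5.13, 5.48 and 6.06 before, and from 4.98 over 5.33 to 6.24 after IgG1, against 5.34, 5.75 and 6.52 before. Animal 1 of the IgG1 group, at 4.98 after against 6.52 before, had the widest gap. ISG15 contributed little here, with changes of 0.70 after anti-IL-15 and 0.45 after IgG1 and a difference of 0.26 ± 0.32 (adjusted p = 0.885).

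Genes listed as markers of other cell types also had changes in CD8 TCM. Of 16 monocyte and myeloid dendritic cell markers 10 passed the filter, and 9 of these 10 had positive changes after anti-IL-15, with a median of 0.38 and 0 called, against 3 of 10 and a median of -0.19 after IgG1. Their summed intensity ran from 2172 to 7502 after anti-IL-15 against 1925 to 4142 before, with animal 6 at the top, and from 2026 to 3178 after IgG1 against 1726 to 4651 before. CD14, CD68 and FCGR3A were detected in 24 of 24 CD8 samples and LYZ in 17, while S100A8, S100A12 and MS4A7 were detected in no CD8 sample. Of 10 NK cell markers 8 passed. After anti-IL-15 2 of the 8 were called, both higher, where 0.174% of all genes were called. After IgG1 and for the difference between the antibodies 0 were called. The sum of the 8 ran from 1238 to 2066 after anti-IL-15 against 689.5 to 1369 before, and was higher in 6 of 6 animals. After IgG1 it ran from 1173 to 2848 against 880.5 to 1817 before, and only animal 6 was lower, at 1639 against 1817. GNLY, NKG7 and FCGR3A were detected in 24 of 24 CD8 samples, and NCR1 in no sample. Plasmacytoid dendritic cells, strong producers of type I interferon, were read by 2 of 6 markers, and CLEC4C, SPIB and TCF4 were detected in no sample. Whether the sorted T cells or other cells gave the signal of these marker genes was not tested. Their part in the interferon gene changes was not tested either.

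In CD4 TCM after anti-IL-15, the picture over the members was similar and again no member passed. In limma 0 of 27 members passed, where 0.0336% of all 8923 genes did, and 6 members were higher and 0 lower at an unadjusted p below 0.05, where 2.45% of all genes were higher and 3.21% lower. The change was above 0 for 20 of 27 members, where it was for 43.2% of all genes, and the median change was 0.15, against -0.03 over all genes. Summed myeloid markers ran from 1652 to 2864 after anti-IL-15 against 1533 to 2988 before. The summed NK markers ran from 337.5 to 604.6 after against 401.1 to 636.2 before. Erythroid markers had negative changes in 4 of 4 genes after anti-IL-15 (median -0.49) and positive ones in 4 of 4 after IgG1 (median 0.12), with 0 called. Their difference between the antibodies was negative in 4 of 4 genes in both cell types, with a median of -0.70 in CD4 TCM and -0.69 in CD8 TCM, and their part in the member changes was not tested.

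MX1, a dynamin-like GTPase that traps viral nucleoproteins, had the lowest p in CD4 TCM. It ran from 6.91 over a median of 7.38 to 8.73 after anti-IL-15, against 6.12, 6.62 and 7.44 before. Animal 4 stood highest after treatment, at 8.73 against 6.78 before, and animal 6 alone was lower, at 7.07 against 7.21. The change was 0.80 ± 0.24 (1.74-fold, adjusted p = 0.504), and 0.57 without animal 4. With sorted cell number in the model it was 0.08 ± 0.33 (adjusted p = 0.996). Sorted CD4 TCM had a median of 303000 cells after anti-IL-15, against 503500 before, and the part of this in the MX1 change was not separately tested. In CD8 TCM the MX1 change was 0.32 ± 0.19.

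IFITM2, which blocks fusion of viruses in endosomes, ran from 8.07 over 9.02 to 9.43 after anti-IL-15 in CD4 TCM, against 7.45, 8.60 and 8.99 before. Animal 4 was lowest both after and before treatment, and animal 2 alone was not higher after treatment. The change was 0.41 ± 0.14 (1.33-fold, adjusted p = 0.671), about the same as the 0.41 ± 0.18 in CD8 TCM. ISG15 ran from 8.90 over 9.64 to 10.34 after anti-IL-15 in CD4 TCM, against 7.48, 8.92 and 10.57 before. Animals 4, 5 and 6, the lowest before treatment, were each more than 1 log2 unit higher after it, and animals 1, 2 and 3 stayed within 0.5 of their earlier level. The change was 0.65 ± 0.25 (1.57-fold, adjusted p = 0.778), and 0.30 without animals 5 and 6 of both antibodies (an exclusion added after the values were seen). IFI44 (0.43), OASL, an oligoadenylate synthetase-like protein (0.41), and UBE2L6 (0.31, higher in 6 of 6 animals) were the other members with an unadjusted p below 0.05.

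**Figure D2:**
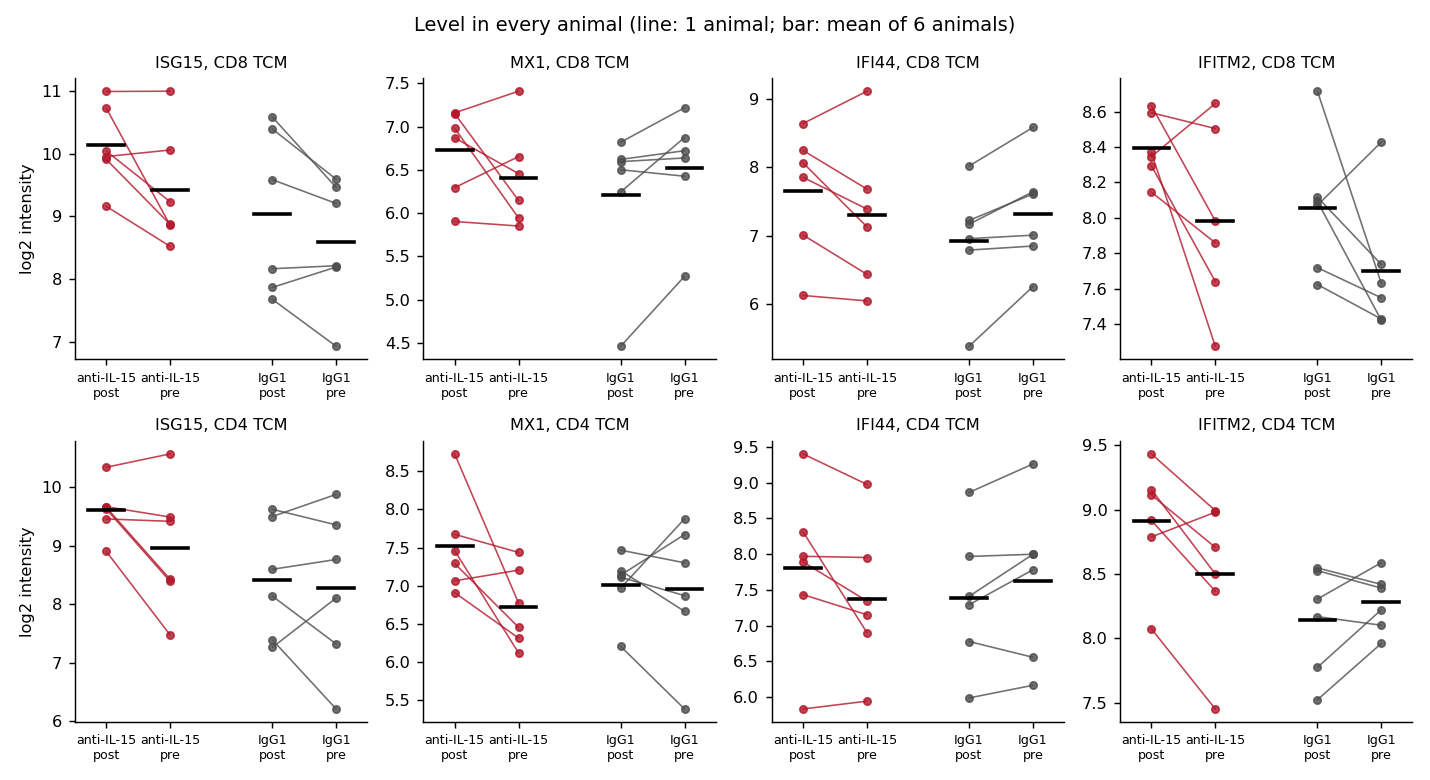
Log2 intensity of ISG15, MX1, IFI44 and IFITM2 in CD8 TCM (top) and CD4 TCM (bottom), after (post) and before (pre) anti-IL-15 (red) and IgG1 (grey); each line joins the samples of 1 animal and black bars are means of 6 animals. Post and pre levels overlap in every panel, and the spread between animals is widest for ISG15 and IFI44.

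After IgG1, CD4 members were near or below 0. In limma 0 of 27 members passed, where 0% of genes did, 0 were higher and 1 was lower at an unadjusted p below 0.05, where 2.4% of genes were higher and 1.13% lower, and 11 of 27 were above 0, where 49.6% of all genes were. HERC5 was lower after IgG1 in 6 of 6 animals, from 5.38 over 5.77 to 6.96 after IgG1, against 5.59, 6.20 and 7.31 before. Its change was -0.36 ± 0.13 (unadjusted p = 0.0108, adjusted p = 1), well inside the spread between animals. IFI44 and PARP12, an ADP-ribosyltransferase, followed with changes of -0.24 and 0.16. IFI44 ran from 5.99 over 7.35 to 8.86 after IgG1, against 6.17, 7.89 and 9.26 before. PARP12 ran from 9.35 over 9.57 to 9.84 after IgG1, against 9.30, 9.40 and 9.55 before. Both overlapped between the times.

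For the difference between the antibodies in CD4 TCM, 0 of 27 members passed in limma, where 0% of genes did, and 5 members were higher and 0 lower at an unadjusted p below 0.05, where 1.34% of all genes were higher and 2.4% lower. The difference was above 0 for 23 of 27 members, where it was for 45.3% of all genes, with a median of 0.18 against -0.03 over all genes. IFITM2 had a difference of 0.55 ± 0.20, IFI44 of 0.67 ± 0.24 and HERC5 of 0.49 ± 0.18, each with an adjusted p of 0.997. MX1, at 0.75 ± 0.33, and UBE2L6, at 0.42 ± 0.18, were the remaining ones. IFI44 and MX1 were thus among the members with an unadjusted p below 0.05 for this difference in both cell types. These values share the IgG1 animals with those of CD8 TCM. Without anti-IL-15 animal 3 the IFI44 difference was 0.48.

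The members' medians within single animals show how the list behaved as a whole. After anti-IL-15 the median member change in CD8 TCM was -0.15, 0.11, 0.31, 0.26, 0.04 and 0.12 in animals 1 to 6, and after IgG1 it was 0.07, 0.10, 0.07, 0.15, -0.06 and -0.16. Animal 1 was the exception among anti-IL-15 animals, with 7 of 28 members higher, and the antibody groups overlapped. In CD4 TCM it was 0.13, 0.00, 0.25, 0.26, 0.17 and 0.16 after anti-IL-15, and -0.09, -0.08, 0.03, 0.05, 0.01 and 0.01 after IgG1. All anti-IL-15 animals but animal 2 were above all IgG1 animals in CD4 TCM. Without animal 4 the fitted median after anti-IL-15 was 0.14 in CD8 TCM and 0.09 in CD4 TCM, and without animal 3 it was 0.11 and 0.14. No test is given for these medians, because the list was chosen with earlier results of these data known.

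**Figure D3:**
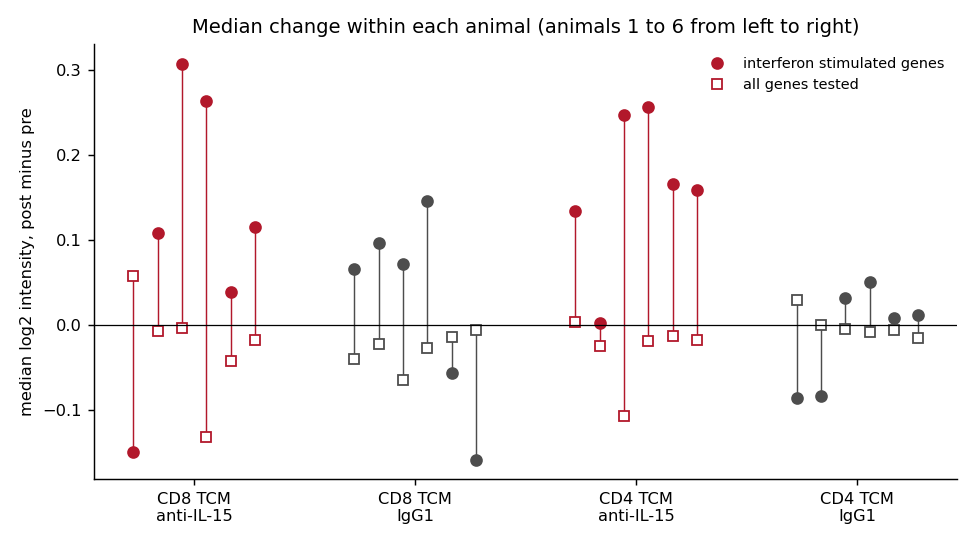
Median log2 change over the interferon stimulated genes (filled circles) and over all genes tested (open squares) within each animal, after minus before treatment, for CD8 TCM and CD4 TCM and for anti-IL-15 (red) and IgG1 (grey); animals 1 to 6 run from left to right in each group. In CD4 TCM the medians after anti-IL-15 run from 0.00 to 0.26 and those after IgG1 from -0.09 to 0.05.

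The changes after anti-IL-15 were not shown to differ between the cell types. In limma 0 of 28 members passed for the CD8 change minus the CD4 change, where 0% of genes did, and 0 had an unadjusted p below 0.05, where 3.62% of all genes did. The lowest p values were those of HERC5 (0.34 ± 0.21), MX1 (-0.49 ± 0.32) and PARP14 (-0.28 ± 0.22), each with an adjusted p of 1. Without animal 4 the value was 0.19 for HERC5 and -0.08 for PARP14, and without animal 3 it was 0.20 for HERC5. Without animal 2 it was -0.44 for PARP14 and -0.74 for MX1. PARP14, a mono-ADP-ribosyltransferase, ran from 5.53 over a median of 6.29 to 6.80 after anti-IL-15 in CD8 TCM, against 6.15, 6.43 and 6.85 before, and from 5.81 over 6.31 to 6.69 after anti-IL-15 in CD4 TCM, against 6.00, 6.14 and 6.51 before. Animal 4 was lowest after treatment in CD8 TCM and highest after it in CD4 TCM. Of the 27 members tested in both, 21 (77.8%) had the same sign in both cell types after anti-IL-15, where 59% of 8194 genes did, and the samples come from the same animals. IFI44, IFITM2, ISG15 and UBE2L6 were higher at an unadjusted p below 0.05 in both, which is 50% of the 8 such members in CD8 TCM and 66.7% of the 6 in CD4 TCM. Over all genes, 80 were higher in both, which is 22% of the 363 in CD8 TCM and 39.4% of the 203 in CD4 TCM. IFIH1, IFIT1, LY6E, OAS1, PARP14 and SP110 had opposite signs, and all had changes close to 0 in at least 1 cell type.

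Before treatment, CD8 and CD4 TCM differed in many of these genes. In limma 15 of 28 members (53.6%) passed an adjusted p of 0.05, where 36.1% of all 9355 genes did. Of these, 5 were higher in CD8 TCM, where 15.3% of all genes were, and 10 were lower, where 20.8% were. By role, all 6 sensors and double-stranded RNA enzymes had lower values in CD8 TCM, 4 of them past the threshold. Of 4 membrane and entry factors and of 4 ISG15 conjugation genes, 3 each had higher values, and in each role 2 were called higher and 1 lower. The ISG15 conjugation gene that was higher without being called was HERC6. It was detected in 8 CD8 and 4 CD4 samples and passed the detection filter through CD8 samples alone. The direction of HERC6 therefore leans towards CD8 TCM by selection. Whether direction differed by role was not tested. CD8 samples held fewer sorted cells than CD4 samples without overlap, so cell type and cell number cannot be told apart. With sorted cell number in the model 0 members passed, and without the animal block 10 passed. Beside these differences, 5 of 10 myeloid markers, 4 of 8 NK markers, 2 of 5 B cell markers and 1 of 2 plasmacytoid dendritic cell markers were higher in CD8 TCM, and 1 of 5 B cell markers and 1 of 3 platelet markers were lower. These counts stand against the same 15.3% higher and 20.8% lower over all genes. In CD8 TCM 10 myeloid and 8 NK markers passed the detection filter, against 6 and 3 in CD4 TCM. Markers that passed through CD8 samples alone were likely to be higher there, so the myeloid and NK counts lean that way by selection. The part of these marker genes in the member differences was not tested.

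Among the sensors and RNA enzymes, OAS1, which makes the oligoadenylates that activate RNase L, ran from 4.83 over a median of 6.25 to 7.54 in CD8 TCM, against 5.05, 7.27 and 8.67 in CD4 TCM. CD8 was lower in 11 of 12 animals, at -0.84 ± 0.15 (0.56-fold, adjusted p = 0.00021), and the ranges overlapped. It turned to 0.47 with sorted cell number in the model (adjusted p = 0.733) and did not pass without the animal block (adjusted p = 0.104), so its direction is uncertain. Of its other 2 probes, 1 gave -0.66 (adjusted p = 0.00038) and 1 gave -0.15 (adjusted p = 0.285). EIF2AK2 ran from 5.13 over 5.56 to 6.52 in CD8 TCM, against 5.76, 6.39 and 7.56 in CD4 TCM, a difference of -0.79 ± 0.15 (adjusted p = 0.000353). IFIH1, the cytosolic sensor of long double-stranded RNA, was lower in CD8 TCM in 12 of 12 animals. It ran from 7.77 over 8.19 to 8.47 in CD8 TCM, against 8.13, 8.60 and 9.07 in CD4 TCM (-0.40 ± 0.09, adjusted p = 0.00149). ADAR, which edits adenosines in double-stranded RNA, ran from 5.32 over 6.07 to 6.28 in CD8 TCM, against 5.55, 6.41 and 6.68 in CD4 TCM (-0.39 ± 0.11, adjusted p = 0.00753). OAS2 and OASL did not pass, at -0.09 and -0.11.

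Among the membrane factors, LY6E was higher in CD8 TCM in 12 of 12 animals. It ran from 7.73 over 8.51 to 9.20 in CD8 TCM, against 7.25, 7.75 and 8.41 in CD4 TCM, a difference of 0.64 ± 0.12 (1.56-fold, adjusted p = 0.000261). BST2, or tetherin, which holds budding virions at the cell surface, ran from 8.42 over 9.41 to 10.09 in CD8 TCM, against 7.87, 8.73 and 9.77 in CD4 TCM. Its difference was 0.55 ± 0.11, positive in 11 of 12 animals (adjusted p = 0.000608). IFITM2 went the other way, from 7.27 over 7.69 to 8.65 in CD8 TCM, against 7.45, 8.41 and 8.99 in CD4 TCM (-0.55 ± 0.11, adjusted p = 0.000542). IFITM1, its paralog, had a difference of 0.26 that did not pass (adjusted p = 0.0607). The estimates of these 2 paralogs had opposite signs.

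TRIM22 had the largest difference of all members. It ran from 7.02 over 7.48 to 8.07 in CD8 TCM, against 6.86, 8.70 and 9.72 in CD4 TCM. In 11 of 12 animals CD8 was lower, and the exception was anti-IL-15 animal 3, whose CD4 array gave 6.86. The difference was -1.15 ± 0.18 (0.45-fold, adjusted p = 8.5e-05) in limma. It was -1.32 without anti-IL-15 animal 3 and -1.23 ± 0.16 in the post-treatment samples.

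Within ISG15 conjugation the genes split. ISG15 ran from 6.94 over 9.04 to 10.99 in CD8 TCM, against 6.21, 8.60 and 10.57 in CD4 TCM, and was higher in CD8 by 0.39 ± 0.11, in 10 of 12 animals (adjusted p = 0.00882). UBE2L6 ran from 10.68 over 10.82 to 11.34 in CD8 TCM, against 10.29, 10.55 and 11.19 in CD4 TCM, and was higher by 0.26 ± 0.09 (adjusted p = 0.0285). Both ranges lay mostly on top of each other. HERC5 was lower, at -0.46 ± 0.13 (adjusted p = 0.00658), running from 4.71 over 5.73 to 6.81 in CD8 TCM, against 5.23, 6.20 and 7.31 in CD4 TCM. Without animals 5 and 6 of both antibodies, ISG15 (0.20, adjusted p = 0.29) and UBE2L6 (0.19, adjusted p = 0.297) did not pass, and the count of members was 9. UBE2L6 passed in 8 of 12 fits that each left out 1 animal, and not without anti-IL-15 animal 1, 4 or 5 or IgG1 animal 6 (0.23, 0.25, 0.24 and 0.23).

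The remaining members past the threshold had differences between -0.43 and 0.33. IFIT1, which binds RNA lacking the host's cap methylation, ran from 4.55 over 5.07 to 5.76 in CD8 TCM, against 4.88, 5.52 and 6.57 in CD4 TCM (-0.43 ± 0.11, adjusted p = 0.00498), but its other probe gave 0.06. EPSTI1 ran from 4.48 over 4.83 to 5.58 in CD8 TCM, against 4.47, 5.16 and 5.75 in CD4 TCM, and was lower, at -0.36 ± 0.10 (adjusted p = 0.00692), at intensities where 7 of 24 CD8 samples and 17 of 24 CD4 samples were detected. IFI44L ran from 5.47 over 5.88 to 6.47 in CD8 TCM, against 5.30, 5.50 and 5.97 in CD4 TCM, and was higher by 0.33 ± 0.10 (adjusted p = 0.0122), while its neighbour IFI44 had a difference of -0.19 (adjusted p = 0.281). XAF1, an antagonist of the apoptosis inhibitor XIAP, ran from 5.51 over 6.08 to 6.52 in CD8 TCM, against 5.77, 6.44 and 6.92 in CD4 TCM (-0.29 ± 0.11, adjusted p = 0.0432), but its other probe gave 0.32 (adjusted p = 0.0548), and the call held in 4 of 12 fits that left out 1 animal (values from -0.36 to -0.24), those without anti-IL-15 animal 2 or 4 or IgG1 animal 4 or 5. With sorted cell number in the model IFIT1 was at 0.20. The direction of IFIT1 and XAF1 between the cell types is therefore uncertain. SP110 did not pass on the probe used, but its other probe gave -0.28 (adjusted p = 0.0091 in limma), so the count of members past the threshold depends on the probe. In the post-treatment samples of the same animals 15 members passed, where 41.7% of all genes did, 12 of them the same as before treatment, and 24 of 28 members had the same sign. EPSTI1, HERC5 and IFI44L no longer passed, and IFI44, IFITM1 and MX1 (-0.80 ± 0.16, adjusted p = 0.000497) passed in addition.

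**Figure D4:**
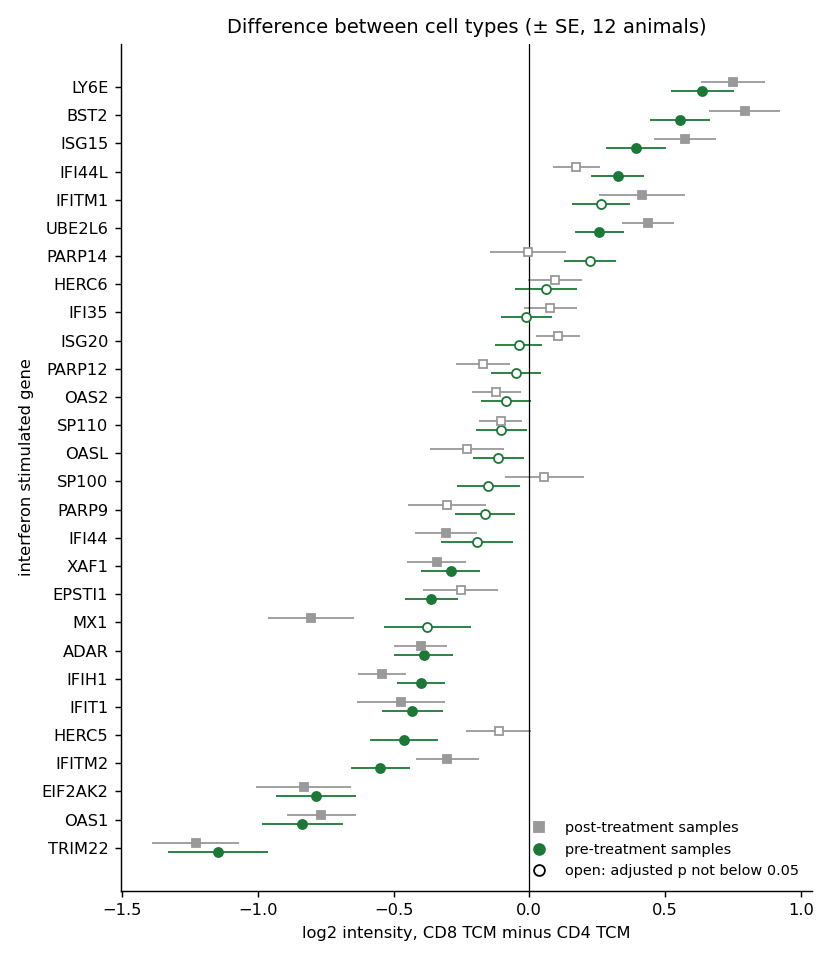
Difference in log2 intensity between CD8 and CD4 TCM for every member, sorted by its value before treatment, from post-treatment samples (grey squares) and pre-treatment samples (green circles); bars are ± SE of limma, 12 animals, and open symbols did not pass an adjusted p of 0.05. TRIM22 lies at -1.15 and LY6E at 0.64 before treatment, and 24 of 28 members keep their sign after it.

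Animals differed widely in these genes, and most of all in ISG15. An F test of the 12 animals over both cell types before treatment called 9 of 28 members (32.1%) in limma, where it called 10.5% of all 9355 genes. No member passed between the antibody groups before treatment: 0 of 28 members passed in CD8 TCM and 0 of 27 in CD4 TCM, where 0% of genes did in either, and 1 and 5 had an unadjusted p below 0.05, where 6.35% and 11.5% of genes did. The lowest adjusted p was 0.728, for SP110 in CD8 TCM, and 0.272, for TRIM22 in CD4 TCM (-0.83 ± 0.28). An animal and the handling of its blood on the day of sampling cannot be told apart.

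ISG15 had the strongest animal term, with F = 32.8 (adjusted p = 4.19e-08). Before treatment it spanned 4.05 log2 units over the 12 animals in CD8 TCM and 4.36 in CD4 TCM. Anti-IL-15 animal 2 was highest, at 10.99 in CD8 and 10.57 in CD4, and IgG1 animal 5 was lowest, at 6.94 and 6.21. IFI44 spanned 3.06 in CD8 TCM and 3.32 in CD4 TCM (F = 16.1, adjusted p = 9.9e-06). Anti-IL-15 animal 5 was lowest in both, at 6.05 and 5.94, while IgG1 animal 1 was at 8.58 and 9.26. That animal order was not the order of ISG15: IgG1 animal 5, lowest for ISG15, was at 6.85 in CD8 and 6.56 in CD4 for IFI44.

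OAS1 spanned 2.71 in CD8 TCM and 3.62 in CD4 TCM (F = 15.2, adjusted p = 1.56e-05), and anti-IL-15 animal 5 was lowest in both, at 4.83 and 5.05. The other 2 OAS1 probes did not pass, with F = 1.60 (adjusted p = 0.416) and F = 2.93 (adjusted p = 0.11), so the animal term of OAS1 rests on 1 probe. HERC5 spanned 2.11 and 2.08 (F = 7.77, adjusted p = 0.00131), with IgG1 animal 1 highest in both, at 6.81 and 7.31. BST2 (F = 6.09), IFITM2 (F = 4.50), IFIT1 (F = 4.40), MX1 (F = 4.01) and OAS2 (F = 3.75) passed as well. The other probe of IFIT1 did not (F = 0.64, adjusted p = 0.878), so its animal term rests on 1 probe too. None of the ADP-ribosylation genes or of the nuclear body genes passed, 6 members in all, on the probes used, although the other probe of PARP9 did (F = 4.66, adjusted p = 0.0189).

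The differences between animals were present again after treatment. In the post-treatment samples 10 members passed, where 12.6% of all genes did, and 8 were the same as before. ISG15 (F = 27.5), IFI44 (F = 23.9), OAS1 (F = 12.1) and HERC5 (F = 8.58) were again among them. Without animals 5 and 6 of both antibodies 6 members passed before treatment, with ISG15 at F = 20.0. Of the marker lists, 3 of 4 erythroid, 2 of 3 platelet, 2 of 8 NK and 1 of 10 myeloid markers differed between animals before treatment. So did 2 of 8 genes of T cell and TCM identity and 0 of 5 B cell markers. Over all genes 10.5% did, so the myeloid count was near that share. The part of these marker genes was not tested. The summed erythroid markers ran from 176.6 to 27390 in CD8 anti-IL-15 samples before treatment.

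**Figure D5:**
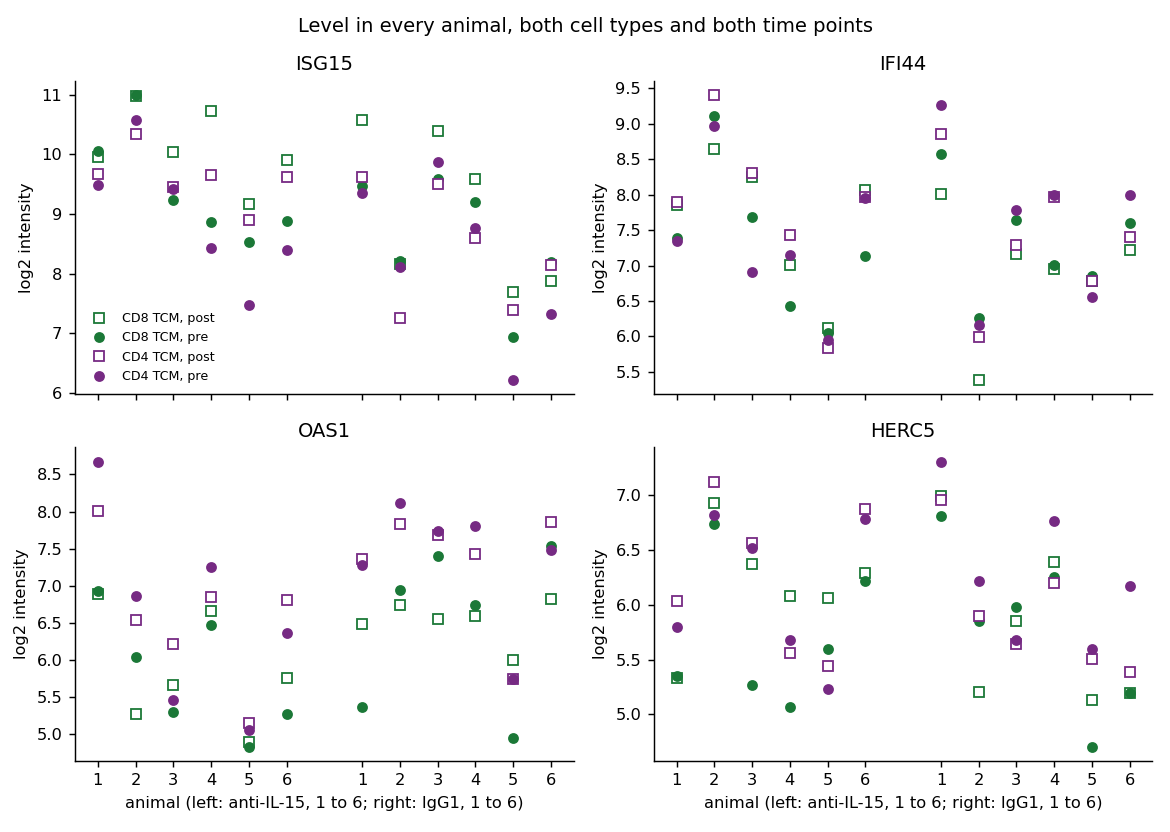
Log2 intensity of ISG15, IFI44, OAS1 and HERC5 in every animal (1 to 6 of anti-IL-15 on the left, 1 to 6 of IgG1 on the right), in CD8 TCM (green) and CD4 TCM (purple), after (open squares) and before treatment (filled circles). The 4 samples of an animal tend to lie together, and ISG15 before treatment spans 4.05 in CD8 TCM and 4.36 in CD4 TCM over the 12 animals.

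Pairs of members varied together only in part. With each sample taken relative to its group mean, the median correlation over 378 member pairs in 24 CD8 samples was 0.07, against 0.006 over all gene pairs, and 6.61% of member pairs were over 0.5, against 3%. In CD4 TCM the median was 0.09 over 351 pairs, and 6.27% were over 0.5, against 3.04%. The highest in CD8 TCM were HERC5 with OASL (0.79), HERC5 with ISG15 (0.75) and ISG15 with OAS2 (0.74). In CD4 TCM they were IFITM1 with UBE2L6 (0.79), HERC5 with IFI44 (0.77) and IFI44 with IFIT1 (0.76). Samples of an animal share that animal, so these values are a description.

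The rest of the interferon pathway was read in part. Of 8 interferon ligand genes only IFNW1 had signal past the filter, and it was not called in any comparison. Of 12 receptor and signalling genes, 9 were tested in CD8 TCM and 10 in CD4 TCM, and 0 passed after either antibody. The lowest p after anti-IL-15 in CD8 TCM included IFNAR1, a receptor chain, at 0.45 ± 0.20 (adjusted p = 0.507). Between the cell types 5 of 10 passed, where 36.1% of all genes did: IFNAR1 (-0.46 ± 0.11), IFNAR2 (-0.57 ± 0.11), the interferon gamma receptor chain IFNGR2 (-0.41 ± 0.12) and the kinase JAK2 (-0.77 ± 0.12) were lower in CD8 TCM, and the kinase TYK2 (0.44 ± 0.11) was higher. Both chains of the type I receptor thus had lower estimates in CD8 TCM, with adjusted p = 0.00365 for IFNAR1 and adjusted p = 0.000514 for IFNAR2. IFNAR1 was detected in 16 CD8 and 22 CD4 samples, IFNAR2 in 11 and 24, and IFNGR2 in 13 and 22. Many of their CD8 readings were thus near background. Cell type and sorted cell number cannot be told apart for these genes either. JAK2 was detected in 3 CD8 and 21 CD4 samples, so it passed the detection filter through CD4 samples alone. A gene that passed in this way was likely to be lower in CD8 TCM. The direction of JAK2, and its place among the genes that passed, therefore lean that way by selection.

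Of 13 genes that induce interferon, 6 were tested between the cell types, and 3 passed, against the same 36.1% of all genes. The transcription factor IRF8 was higher in CD8 TCM (0.46 ± 0.13), and the adaptor STING1 (-0.56 ± 0.12) and the kinase TBK1 (-0.34 ± 0.12) were lower, while 0 passed after either antibody. Of 9 feedback genes and other interferon regulatory factors 8 were tested. SOCS3 rose in CD8 TCM after anti-IL-15 (1.29 ± 0.20, adjusted p = 0.0227), and SOCS1 (1.05 ± 0.14, adjusted p = 0.00526) and IRF1 (1.03 ± 0.17, adjusted p = 0.0248) rose in CD4 TCM. Over all genes 0.174% passed in CD8 TCM and 0.0336% in CD4 TCM, and 0 members did. For the difference between the antibodies 0 of the 8 passed in either cell type. After IgG1 the highest change in this list was 0.51 in CD8 TCM and 0.76 in CD4 TCM, with 0 called. Between the cell types SOCS3 (-1.06 ± 0.14), PTPN2 (-0.73 ± 0.11), PIAS1 (-0.40 ± 0.10) and SOCS1 (-0.25 ± 0.10) were lower in CD8 TCM, and the phosphatase PTPN6 was higher (0.35 ± 0.12).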

How the data were processed

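Total RNA of sorted TCM was measured on Illumina human BeadChips with 47230 probes. The deposited table holds bead intensity per probe and array and, per the file headers, a detection p-value against each array's background. The authors' value table holds log2 values, of which 99.94% lay within 0.001 of quantile-normalised log2 intensities recomputed here, with no background correction. The submitters' processing notes name limma without version. Groups, animals and sorted cell counts came from the labels, and nothing else about upstream steps is given in the sources used here.

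The neqc function of limma (3.58.1, under R 4.3.3) corrected the background with an offset of 16, quantile normalised the 49 arrays together and took log2. Of the 47230 probes 30113 had 1 gene symbol, 8 several and 17109 none, and only the first kind was tested. The 49 readings of 0 were treated as missing. CD8 fits tested 8626 genes, CD4 fits 8923 and joint fits 9355. Probes detected per array ran from 11448 to 13720 in CD8 and from 11993 to 14870 in CD4, and the number of arrays limits the precision. The 2 arrays of the repeated sample (r = 0.988) were averaged.

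Fits used lmFit and eBayes with the animal of the labels as a fixed replicate block and 1 post-treatment term per antibody; CD8 against CD4 also used the animal, their difference in change used each animal in each cell type, and the antibody comparison before treatment had no block. Paired samples of an animal correlated, relative to group means, with a median r of 0.404 (CD8, anti-IL-15), 0.387 (CD8, IgG1), 0.223 (CD4, anti-IL-15) and 0.399 (CD4, IgG1). Benjamini-Hochberg adjustment ran over every gene in a fit, with a threshold of 0.05. The fits were tested on simulated data. Values in full were given for members past the threshold, the 3 lowest p values of each comparison after treatment, the 5 lowest of CD8 minus CD4 and the 4 lowest of the animal test, and, of each pathway list, genes past the threshold and the 2 lowest p values; members outside this rule were named after their values were seen. The members and all gene lists were chosen with earlier results of these data known.

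Alternatives were the deposited values, normexp with offset 50, no background correction, no detection filter or a stricter one, a variance trend, array weights, the sorted cell count, each animal left out, a threshold of 0.1, no replicate block, a random block and other probes. Added after seeing the data were fits without animals 5 and 6 and the post-treatment samples. Sequences and coordinates of the probes were not used here. Figures were drawn in Python 3.11.15.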

Additional observations from a re-analysis of the deposited data

Results flagged for a closer look

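Of 160 groups of 6 samples over 20 named members, 12 held a sample whose gap to its nearest neighbour, as a share of the group's range, exceeded Dixon's critical value for 6 samples; chance gives about 1 in 20. In the CD4 IgG1 groups the shares were 0.767 for OAS1 after and 0.649 before treatment, both in animal 5, 0.693 for ADAR after treatment in animal 5, 0.662 for XAF1 after treatment in animal 6 and 0.708 for ISG20 before treatment in animal 1. In the CD8 IgG1 groups they were 0.757 for MX1 after treatment in animal 5, 0.773 for IFIT1 after treatment in animal 3 and 0.687 for IFITM2 before treatment in animal 6. In the anti-IL-15 groups they were 0.822 for IFIT1 in CD4 animal 2 after treatment, 0.691 for TRIM22 and 0.629 for ADAR in CD4 animal 3 before treatment, an animal whose CD4 arrays stood apart, and 0.762 for UBE2L6 in CD8 animal 1 before treatment.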

How the results depend on the processing

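The counts of 0 members past the threshold after treatment stayed at 0 under every alternative run, and leaving out 1 animal gave 13 to 16 members for CD8 minus CD4 and 6 to 10 for the animal test. The CD8 minus CD4 count was 0 with sorted cell number in the model, which does not overlap between the cell types, and 9 without animals 5 and 6 of both antibodies. With that covariate OAS1 (0.47) and IFIT1 (0.20) turned positive, and another probe of IFIT1 (0.064) and of XAF1 (0.32) was positive too; the cause was not tested. Median member changes ran from 0.08 to 0.26 in CD8 TCM and from 0.09 to 0.19 in CD4 TCM after anti-IL-15. After IgG1 they ran from -0.005 to 0.08 in CD8 TCM and from -0.07 to 0.002 in CD4 TCM, so their sign is unsettled. Without the replicate block the counts after treatment stayed at 0, the median after anti-IL-15 was 0.16 in CD8 and 0.15 in CD4 TCM, and the CD8 minus CD4 count was 10, without OAS1, IFIT1, HERC5, ISG15 and XAF1. Of single members, 871 values kept direction and side of the threshold, 47 lost the threshold and 4 reversed. Probes designed on human sequence limit which genes could be read.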
